A study of Mus musculus with 12 samples.

Results

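The replication-dependent histone genes encode the bulk of the core histones H2A, H2B, H3 and H4 and of the linker histone H1, the proteins around which newly copied DNA is wrapped. They were taken here as every protein-coding gene of the GENCODE M21 annotation whose symbol starts Hist1h, Hist2h, Hist3h or Hist4h. This rule gave 67 genes of the 55487 in the count table, and all 67 had a row there. They lie in the Hist1 cluster on chromosome 13 with 54 genes, the Hist2 cluster on chromosome 3 with 10, the Hist3 cluster on chromosome 11 with 2 and as 1 Hist4 gene on chromosome 6. By protein type they are 6 H1, 18 H2A, 18 H2B, 12 H3 and 13 H4 genes.

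Transcription of most of these genes is tied to S phase, when a dividing cell copies its DNA. Their messenger RNAs are known as the metazoan mRNAs that end in a conserved stem-loop rather than in a poly(A) tail: the stem-loop binding protein and the U7 small nuclear ribonucleoprotein direct a cut just after the loop. Many histone genes also carry an ordinary poly(A) signal further downstream, and in cells that have left the cell cycle such polyadenylated histone transcripts are made. The adult retina consists almost wholly of neurons and glia that no longer divide.

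The libraries came from whole mouse retina of 2 genotypes at 2 ages, with 3 libraries in each of 4 groups: WT mice of strain C57BL/6J at 1 month (WT 1M) and 6 months (WT 6M), and 5xFAD mice of the same ages (5xFAD 1M and 5xFAD 6M). 5xFAD, line Tg6799, is a transgenic model of Alzheimer's disease whose transgenes are driven by the neuronal Thy1 promoter. The labels give the strain as C57BL/6J for WT and Tg6799 for 5xFAD, so a difference in strain background and the transgenes cannot be told apart. They do not say whether the 3 libraries of a group came from separate animals, so p-values measure only the spread between these libraries, which may be technical. RNA was selected on poly-T beads and the library kit does not mark strand. RNA that ends at the stem-loop should bind such beads poorly, so the counts describe mainly histone RNA that has a poly(A) tail, and reads from the 2 strands of 1 position cannot be told apart.

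The expected counts, the estimated numbers of reads per gene, summed to between 14693700 and 19552500 in the WT 6M libraries and to between 10928000 and 14138000 in the other 9. Ribosomal RNA genes took 0.0280 to 1.11 percent of them, with WT 1M library 2 (0.325 percent) and 5xFAD 6M libraries 1 and 2 (1.11 and 0.446 percent) above all others. The RNA 7SK (Rn7sk), which has no poly(A) tail, stood at 94.6 and 48.3 CPM (expected counts relative to the scaled library size) in these 5xFAD 6M libraries and at 1.82 to 17.4 CPM in the other 10. All 13 retinal marker genes, such as Glul of Mueller glia, passed the count filter. Of the markers of neighbouring tissue and blood, the lens gene Cryaa stood at 4.51 to 39.3 CPM in the 5xFAD 1M libraries and at no more than 1.05 CPM in any other.

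The annotated 3' ends of the members were searched for the stem-loop and for a poly(A) signal. The hairpins with a stem of 6 and a loop of 4 bases that follow the stop codon of members were collected, and the most frequent one, with those that differ from it in at most 4 bases, gave the form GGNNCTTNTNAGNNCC, where N is any base. Searched on the transcript strand in the 100 bases after the stop codon, this form was present in 28 of 33 member transcripts whose model runs that far. The form was found in 8 of 40165 other protein-coding transcripts, or 0.0199 percent. Because the form was built from this same stretch of the members, their high share was largely set by the search. It is not an independent enrichment. At any distance after the stop codon the stem-loop was found in 4 H1, 11 H2A, 10 H2B, 9 H3 and 12 H4 genes. The form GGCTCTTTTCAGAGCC was shared by 26 members of the H1, H2A, H2B and H3 types, and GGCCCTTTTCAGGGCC by 7 members, all of them H4 genes. The stem-loops of members on which the results turn are printed from the GENCODE M21 transcripts (GRCm38), 5' to 3'. The 16 bases of the stem-loop are in capitals. Those of Hist1h4i and Hist2h4 belong to H4 genes and differ from the others in the stem and in the last base of the loop.
Hist1h1c stem-loop (chr13:23739507-23739532, plus strand): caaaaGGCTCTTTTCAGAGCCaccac
Hist3h2a stem-loop (chr11:58955167-58955192, plus strand): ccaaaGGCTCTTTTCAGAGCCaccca
Hist2h2aa2 stem-loop (chr3:96239779-96239804, minus strand): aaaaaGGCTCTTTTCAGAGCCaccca
Hist3h2ba stem-loop (chr11:58949344-58949369, plus strand): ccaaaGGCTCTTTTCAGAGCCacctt
Hist1h2be stem-loop (chr13:23585526-23585551, minus strand): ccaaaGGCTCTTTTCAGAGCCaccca
Hist1h4i stem-loop (chr13:22040961-22040986, minus strand): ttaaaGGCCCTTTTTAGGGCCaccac
Hist2h4 stem-loop (chr3:96262934-96262959, minus strand): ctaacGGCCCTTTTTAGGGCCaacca

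A poly(A) signal, AATAAA or ATTAAA on the transcript strand, lay in the last 50 bases of 19 of 53 member transcripts with at least 50 bases after the stop codon (35.8 percent), against 66.6 percent of 42773 other protein-coding transcripts. The models of Hist1h2bc, Hist2h2aa2, Hist1h1e, Hist1h2bh, Hist1h2ac and Hist1h3d, which are also named in the results, had no such signal in their last 50 bases. The ends printed here are from named members that have it, as 30 bases with the signal in capitals. They show that these members have an ordinary poly(A) signal near an annotated end, beside or in place of the stem-loop. Where the RNAs end and whether they carry a tail was not measured.
Hist1h1c poly(A) signal (chr13:23740336-23740365, plus strand): gcttctAATAAAaagcgtttagttttcatt
Hist3h2a poly(A) signal (chr11:58956791-58956820, plus strand): atgcccAATAAAataagagtacgtgtataa
Hist3h2ba poly(A) signal (chr11:58949501-58949530, plus strand): ggtattAATAAAtttggttcaattttggcc
Hist2h2be poly(A) signal (chr3:96223709-96223738, plus strand): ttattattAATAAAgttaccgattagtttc
Hist1h2be transcript with no coding sequence, poly(A) signal (chr13:23618980-23619009, minus strand): tcaagacaagaaataAATAAAtgaaaatta
Hist1h4i poly(A) signal (chr13:22040636-22040665, minus strand): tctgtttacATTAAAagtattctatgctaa
Hist2h4 poly(A) signal (chr3:96261691-96261720, minus strand): acataaAATAAAatcttaaaaacaacaaaa

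In Hist3h2a, which encodes an H2A, the model runs 1643 bases past the stem-loop to its end, in Hist1h1c 840 bases and in Hist3h2ba 169 bases. Hist2h2be, an H2B gene, has a model of 2620 bases with a signal at its end and no stem-loop of the searched form. Hist1h2bc, the other abundant H2B gene, lies at chr13:23684199-23692908 on the plus strand as a model of 2 exons and 1156 bases in which neither motif was found. A missing match says only that these letters are not in the annotated model.

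Members with longer models held most of the counts. Mean CPM over the 12 libraries, summed over genes, lay to 61.7 percent in the 17 members with a poly(A) signal at an annotated end and to 33.5 percent in 12 members whose model runs more than 100 bases past the loop or stop codon without a signal at its end. The other 38 members, whose model ends within 100 bases of the loop or, where it holds no loop, of the stop codon, held 4.75 percent. Of these, 21 models hold the stem-loop and 17 do not, ending 0 to 48 bases after the stop codon. Among all 38 short models 13 members had no count in any library, and the median was 0.0416 CPM per kilobase of model, against 0.583 in the class with a signal and 1.18 in the extended class without one. The 13 members without a count were 7 H2A, 3 H2B and 3 H3 genes, and 9 of them have a model without the loop. A short model can also collect fewer reads, because a read from RNA that continues past the annotated end is not counted for the gene; the part of this limit was not tested.

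**Figure D1:**
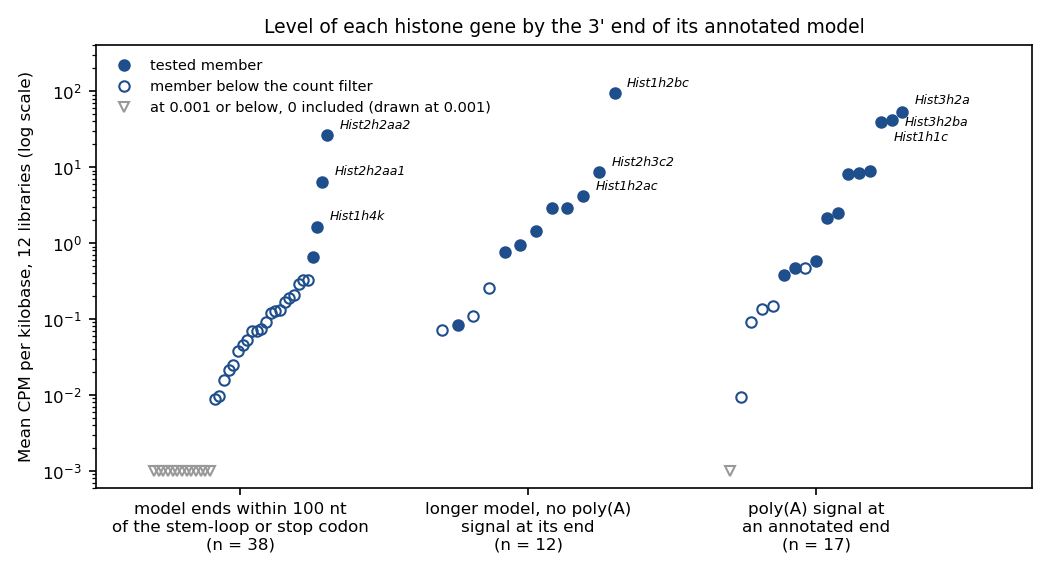
Each point is 1 of the 67 histone genes, placed by the 3' end of its annotated model (horizontal) and by its mean CPM per kilobase over 12 libraries (vertical, log scale). Filled points passed the count filter, open points did not, and triangles mark genes at or below 0.001; 13 of the 38 genes with short models had no count, while the genes of highest level have longer models, apart from Hist2h2aa2.

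A filter on low counts left 24 of the 67 members among 16233 tested genes: 4 H1, 4 H2A, 7 H2B, 3 H3 and 6 H4 genes. Among the 43 members below the filter the highest expected count in any library was 23.7, and 14 of them had no count at all. Per kilobase of model, Hist1h2bc was highest at 93.6 CPM, followed by Hist3h2a at 53.3, Hist3h2ba at 41.9, Hist1h1c at 39.5 and Hist2h2aa2 at 26.1. Hist3h2a, Hist1h2bc and Hist1h1c together held 63.0 to 72.4 percent of member CPM in each library. The most abundant histone variants, which are made outside S phase from ordinary polyadenylated mRNA, were higher on the same scale: H3f3b and H3f3a, which encode the replacement histone H3.3, stood at 346 and 326 CPM per kilobase and H2afz, which encodes H2A.Z, at 101.

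Summed over all 67 members, expression was 324 ± 33.5 CPM in WT 1M (SD, n = 3), 313 ± 1.53 in 5xFAD 1M, 521 ± 20.5 in WT 6M and 509 ± 16.1 in 5xFAD 6M. The 6 libraries at 1 month ranged from 288 to 354 CPM and the 6 at 6 months from 491 to 543, with no overlap. In whole tissue, more cells of a kind that carries these RNAs and more RNA per cell cannot be told apart. The sums by type were not tested. H2A genes had the widest gap, from 85.96 ± 6.37 to 210.5 ± 4.72 CPM in the WT groups and from 90.6 ± 3.73 to 184 ± 7.11 in 5xFAD. H2B genes went from 158 ± 19.4 to 207 ± 14.8 CPM in the WT groups and from 131 ± 3.33 to 218 ± 10.2 in 5xFAD. H1 genes overlapped between the ages, with 62.5 ± 12.8 and 65.8 ± 4.28 CPM in the WT groups and 68.3 ± 2.97 and 77.7 ± 9.88 in 5xFAD. H4 genes stood at 8.90 ± 0.0925 and 22.9 ± 1.88 CPM in WT at the 2 ages and at 12.2 ± 2.82 and 15.8 ± 3.23 in 5xFAD. H3 genes stood at 8.80 ± 3.38 and 14.6 ± 5.02 CPM in the WT groups and 10.2 ± 2.79 and 13.2 ± 3.90 in 5xFAD.

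**Figure D2:**
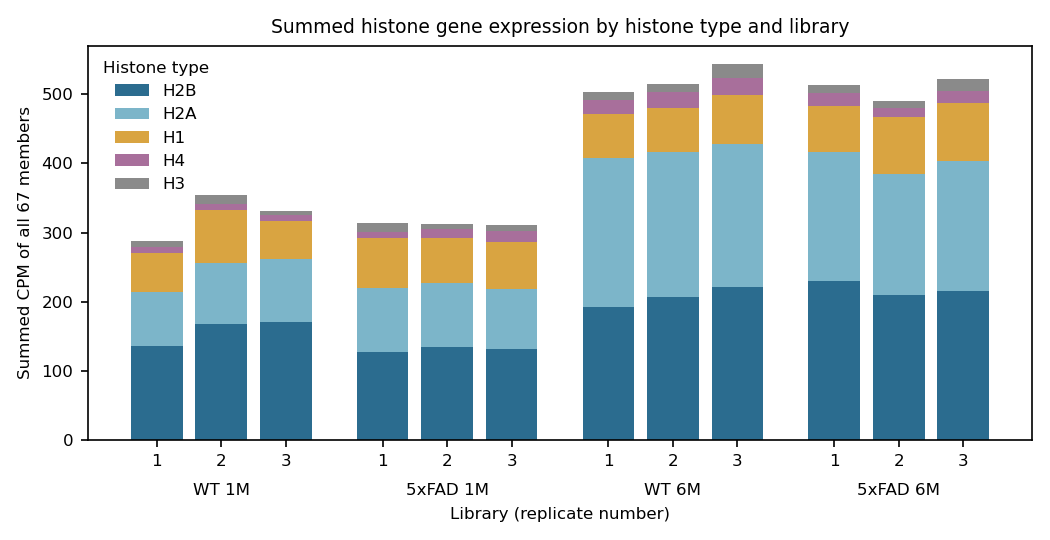
Summed CPM of all 67 histone genes (vertical, from 0) in each of 12 libraries (horizontal, 1 bar a library), split by histone type. The 6 bars at 6 months lie between 491 and 543 CPM and the 6 bars at 1 month between 288 and 354; most of the gap is in the H2A and H2B segments.

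Most of this difference came from a pair of genes. Hist3h2a made up 55.1 percent of the difference in summed CPM between the ages in WT and 40.3 percent in 5xFAD, and Hist1h2bc 20.8 and 32.6 percent. Without both genes the sum was 169 ± 19.7 and 217 ± 19.6 CPM in the WT groups and 168 ± 7.38 and 221 ± 17.8 in 5xFAD, at 1 and 6 months. In the 36 short models other than Hist2h2aa1 and Hist2h2aa2 the sum stayed between 0.398 and 4.33 CPM in all 12 libraries. It stood at 0.665 and 3.44 CPM in 5xFAD 6M libraries 1 and 2, which are rich in ribosomal RNA, at 1.43 in 5xFAD 6M library 3 and at 2.96 to 4.33 in WT 6M. All 38 short models together stood at 21.5 and 26.8 CPM in those rich libraries, at 11.6 in 5xFAD 6M library 3 and at 24.7 to 32.5 in WT 6M; the part of ribosomal RNA content in these sums was not tested.

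Hist3h2a (ENSMUSG00000078851, chr11:58954685-58956830) stood at 60.0, 62.5 and 69.9 CPM in the WT libraries at 1 month, at 76.6, 71.5 and 64.5 in 5xFAD 1M, at 178, 175 and 164 in WT 6M and at 154, 139.7 and 156 in 5xFAD 6M. Every library at 6 months was above every library at 1 month. Hist1h2bc (ENSMUSG00000018102) stood at 76.5, 101 and 94.1 CPM in WT 1M, 72.7, 77.8 and 69.6 in 5xFAD 1M, and at 123, 131 and 140.4 in WT 6M, 149.8, 138 and 124 in 5xFAD 6M. Here too the ages did not overlap in either genotype.

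Hist1h1c (ENSMUSG00000036181), which encodes a linker histone, was not called in any comparison: 52.2, 72.2 and 53.1 CPM in WT 1M, 65.2, 60.2 and 62.0 in 5xFAD 1M, then 53.0, 52.8 and 59.3 in WT 6M, 59.3, 77.6 and 73.5 in 5xFAD 6M. The groups overlapped at both ages except that the 6-month 5xFAD libraries lay at or above those of WT. Hist2h2be stood at 21.3, 15.01 and 23.3 CPM in WT 1M, 15.5, 16.6 and 15.9 in 5xFAD 1M, then at 25.2, 22.8 and 27.6 in WT 6M, 28.4, 24.7 and 28.5 in 5xFAD 6M. Its ages were apart in 5xFAD and overlapped in WT.

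Hist3h2ba, an H2B gene next to Hist3h2a, ran another way: 25.4, 35.6 and 40.9 CPM in WT 1M, 20.4, 24.2 and 22.4 in 5xFAD 1M, 14.4, 24.6 and 21.3 in WT 6M and 29.1, 26.2 and 24.0 in 5xFAD 6M. The WT libraries at 1 month lay above all WT libraries at 6 months and all 5xFAD libraries at 1 month. Hist1h2be stood at 11.4, 10.2 and 4.88 CPM in WT 1M, 14.5, 13.9 and 18.3 in 5xFAD 1M, and at 25.6, 22.7 and 27.5 in WT 6M, 17.5, 16.1 and 29.9 in 5xFAD 6M. Its lowest group was WT at 1 month, with no library as high as any of the other 3 groups.

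**Figure D3:**
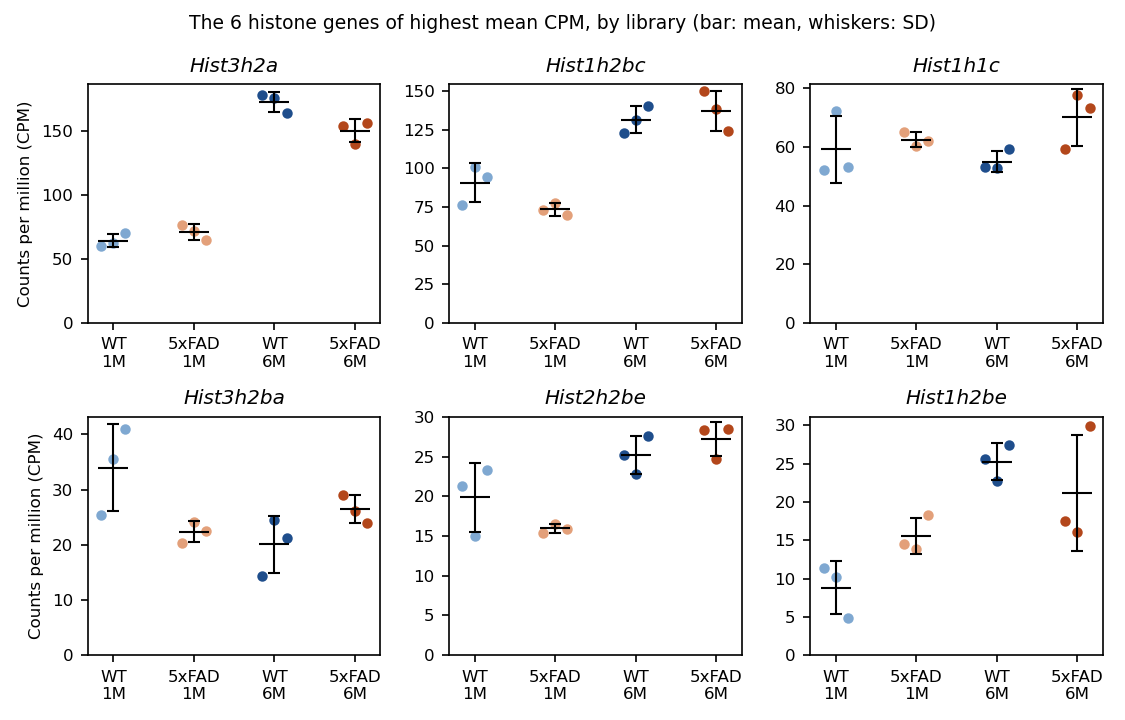
CPM of the 6 histone genes of highest mean level (vertical, from 0) in the 4 groups (horizontal); each point is 1 library, with the mean and SD of 3 libraries. Hist3h2a and Hist1h2bc are higher in every 6-month library than in every 1-month library, while Hist1h1c overlaps between the ages.

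The comparison of 6 months with 1 month in WT asks how the retina changes with age without the transgenes. Of the 24 tested members, 8 rose and 2 were called lower at an adjusted p below 0.05 in edgeR's quasi-likelihood test, where 10.5 percent of all tested genes were called, 6.01 percent higher and 4.49 percent lower. The median log2 fold change was 1.10 over the tested members and -0.01 over all tested genes. The members that rose were 2 H2A genes (Hist3h2a and Hist2h2aa2), 3 H2B genes (Hist1h2bc, Hist1h2be and Hist1h2bh), 2 H4 genes (Hist2h4 and Hist1h4i) and the linker histone gene Hist1h1e.

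Hist3h2a rose by 1.43 ± 0.10 on the log2 scale (estimate ± SE, adjusted p = 2.56e-09) and Hist1h2bc by 0.54 ± 0.11 (adjusted p = 0.0028). Hist1h4i, with 4.33, 3.06 and 4.28 CPM at 1 month and 8.22, 7.69 and 10.4 at 6 months in WT, rose by 1.17 ± 0.29 (adjusted p = 0.0107). Hist1h1e, which shares exonic bases with Hist1h2be, went from 2.54, 4.59 and 1.71 to 8.81, 8.33 and 8.38 CPM, a rise of 1.53 ± 0.38 (adjusted p = 0.0119). The 1-month and 6-month WT libraries were apart for all 4 genes.

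Hist1h2be rose by 1.52 ± 0.26 (adjusted p = 0.000819). Hist2h4 went from 0.840, 0.449 and 2.23 to 6.74, 9.99 and 6.11 CPM (2.69 ± 0.55, adjusted p = 0.0029). Hist1h2bh was almost absent from WT at 1 month, with 0.0857, 0.273 and 0 CPM, and stood at 2.42, 2.50 and 2.04 at 6 months (4.21 ± 0.98, adjusted p = 0.0074). It passed the count filter only through libraries of the other groups, so the filter favoured a difference of this kind. Hist2h2aa2, with 11.7, 11.2 and 11.6 and then 20.6, 20.1 and 26.6 CPM, was called higher by 0.96 ± 0.24 (adjusted p = 0.0098).

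Hist3h2ba fell by 0.75 on the log2 scale (SE 0.19, adjusted p = 0.0136). With the trend on length and GC content removed from each library its change was -0.40 and was no longer called (adjusted p = 0.155), and the call was lost without WT 1M library 2 (-0.71, adjusted p = 0.0563), without WT 1M library 3 (-0.56, adjusted p = 0.104) and without WT 6M library 1 (-0.53, adjusted p = 0.132). The call of Hist1h4i was lost without WT 1M library 2 (1.03, adjusted p = 0.0623). For the other 7 members that rose the call held without each WT library in turn. Hist2h2aa2 is among them. Summed with Hist2h2aa1, which shares its whole model, it was not called by edgeR (0.72 ± 0.24, adjusted p = 0.0605). The second member called lower, Hist2h3c1, is a copy whose counts are described with the overlaps. Restricted to the 17 tested members with no overlapped exon, 4 rose and 1 fell.

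In 5xFAD, 6 of 24 members rose between 1 and 6 months and 1, again Hist2h3c1, was called lower, beside 23.2 percent of all tested genes called, 10.8 percent higher and 12.4 percent lower. The median was 0.46 over the members and 0.03 over all genes. Hist3h2a rose by 1.08 ± 0.10 (adjusted p = 3.26e-07) and Hist1h2bc by 0.90 ± 0.11 (adjusted p = 5.61e-06). Hist1h4i, from 3.54, 3.58 and 4.13 to 10.7, 8.27 and 8.43 CPM, rose by 1.28 ± 0.29 (adjusted p = 0.0027). These 3 genes were the ones that rose in both genotypes. The overlap over all tested genes was not counted, so these 3 are not set against a background. The libraries behind these age comparisons are not shared.

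The other members that rose in 5xFAD were Hist2h2be (0.77 ± 0.18, adjusted p = 0.0029), Hist1h2ac and Hist1h3d. Hist1h2ac, an H2A gene that neighbours Hist1h2bc, went from 3.77, 5.99 and 8.44 to 13.0, 11.1 and 21.2 CPM (1.319 ± 0.30, adjusted p = 0.0027); in WT its values were 5.39, 6.66 and 9.59 and then 13.99, 12.5 and 12.8, a difference of 0.86 ± 0.30 that was not called (adjusted p = 0.0633). Hist1h3d, an H3 gene, went from 0.435, 0 and 0.808 to 1.36, 2.26 and 4.11 CPM (2.61 ± 0.84, adjusted p = 0.0261). It passed the count filter only through libraries of groups other than 5xFAD 1M. Its call was lost after removal of the length and GC trend (2.34, adjusted p = 0.0576), in a fit of the 6 libraries alone (2.60, adjusted p = 0.0651) and without 5xFAD 1M library 1 (2.65, adjusted p = 0.0683), 5xFAD 1M library 2 (2.05, adjusted p = 0.0855) or 5xFAD 6M library 3 (2.08, adjusted p = 0.105). The other 5 calls held without each 5xFAD library. With the trend removed the changes of Hist1h2bc and Hist1h4i in 5xFAD were 0.58 and 0.85, both called.

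**Figure D4:**
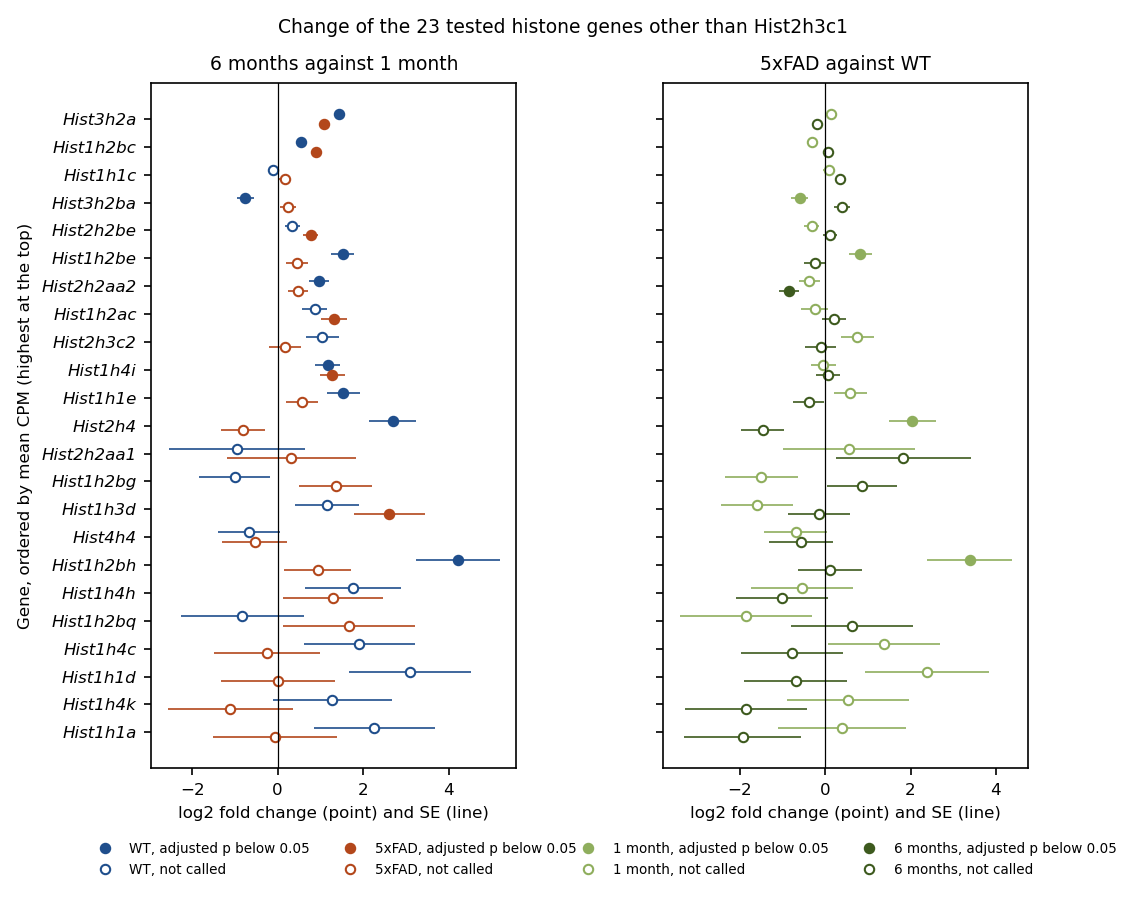
log2 fold change (point) with its standard error (line) of 23 tested histone genes, ordered by mean CPM, for 6 against 1 month in WT and 5xFAD (left) and for 5xFAD against WT at 1 and 6 months (right); filled points have an adjusted p below 0.05. The filled points on the left lie to the right of 0 apart from Hist3h2ba in WT; Hist2h3c1 is left out because it was at 0 in every 6-month library.

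At 1 month, 5xFAD differed from WT in 4 of 24 members, 3 higher and 1 lower, beside 19.6 percent of all tested genes called, 10.7 percent higher and 8.91 percent lower. The share of the members called, 16.7 percent, was near this background, and the median over the members was 0.02 against -0.04 over all genes. Hist2h4 stood at 4.08, 2.94 and 7.54 CPM in 5xFAD and 0.840, 0.449 and 2.23 in WT, higher by 2.04 ± 0.55 (adjusted p = 0.0104). Hist1h2bh, with 1.68, 0.291 and 2.00 CPM against 0.0857, 0.273 and 0, was higher by 3.38 ± 0.99 (adjusted p = 0.0178). Here too no WT 1M library helped it past the count filter. Hist1h2be was higher by 0.82 ± 0.27 (adjusted p = 0.0326). Hist3h2ba was lower, with a log2 fold change of -0.60 ± 0.20 (adjusted p = 0.0309).

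Markers of neighbouring tissue moved in the same comparison. Of 12 tested, 2 were higher and 2 lower in 5xFAD, beside 10.7 and 8.91 percent of all tested genes. Rpe65 was among the lower ones, at 1.01 to 1.70 CPM against 4.13 to 10.6 in WT. The part of these markers in the histone calls was not tested. The calls at 1 month rested on few libraries. The call of Hist2h4 was lost without WT library 2 (1.66, adjusted p = 0.0612) or 5xFAD library 3 (1.57, adjusted p = 0.0788). That of Hist1h2bh was lost without WT library 1 (3.23), WT library 3 (2.86), 5xFAD library 1 (3.18) or 5xFAD library 3 (2.96), with adjusted p from 0.0509 to 0.0696. That of Hist1h2be was lost without any of the 6 libraries other than WT library 1, with log2 fold changes of 0.56 to 0.94 and adjusted p from 0.0521 to 0.143. That of Hist3h2ba was lost without any of the 6 other than WT library 1, with values of -0.66 to -0.42 and adjusted p from 0.0581 to 0.185, and after removal of the length and GC trend, where it was -0.08 (adjusted p = 0.837), and without the 3 libraries rich in ribosomal RNA (-0.58, adjusted p = 0.0776). This comparison shares its WT libraries with the WT age comparison, so a low value in WT 1M enters both.

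At 6 months, 1 of 24 members was called, Hist2h2aa2, which was lower in 5xFAD, beside 6.38 percent of all tested genes, 2.48 percent higher and 3.89 percent lower. Its values were 15.8, 11.98 and 9.44 CPM in 5xFAD and 20.6, 20.1 and 26.6 in WT, a log2 fold change of -0.86 ± 0.23 (adjusted p = 0.0287). Its whole model is shared with Hist2h2aa1, and no member was called once such copies were summed. The call was also lost in a fit of the 6 libraries alone (-0.85, adjusted p = 0.0533) and without any of the 6 other than 5xFAD library 1, with values of -0.96 to -0.72 and adjusted p from 0.0662 to 0.0998. The members of the next smallest p did not pass: Hist2h4 (-1.46 ± 0.51, adjusted p = 0.0857) and Hist1h1c (0.35 ± 0.13, adjusted p = 0.111). No member was called higher at 6 months; 1 was higher at an unadjusted p below 0.05, and DESeq2's Wald test called 1 member in all.

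The interaction, the change with age in 5xFAD minus that in WT, was called for 3 of 24 members beside 25 percent of all tested genes, 11.7 percent with a positive and 13.3 percent with a negative value. Hist2h4 had an interaction of -3.50 ± 0.75 (adjusted p = 0.0013): it was higher in 5xFAD 1M than in WT 1M and stood below WT at 6 months, with 2.39, 1.21 and 4.61 CPM against 6.74, 9.99 and 6.11. This call held without each of the 12 libraries in turn (-4.39 to -3.04, adjusted p up to 0.0072) and under the other 9 alternatives tried (-3.85 to -2.38). Hist1h2be had an interaction of -1.07 ± 0.37 (adjusted p = 0.0343) and Hist3h2ba one of 0.99 ± 0.27 (adjusted p = 0.0099).

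The last 2 calls were each lost under some alternatives, though that of Hist3h2ba held without each of the 12 libraries in turn (adjusted p up to 0.0482). Hist1h2be lost its call without any of 7 libraries, namely WT 1M library 3, 5xFAD 1M libraries 1 and 3, WT 6M libraries 1 and 3 and 5xFAD 6M libraries 1 and 2, with values of -1.12 to -0.83 and adjusted p from 0.0514 to 0.0942. Without the 3 libraries rich in ribosomal RNA it was -0.69 (adjusted p = 0.272). Hist3h2ba lost its call without those 3 libraries (0.82, adjusted p = 0.126) and after removal of the length and GC trend (0.15, adjusted p = 0.748). For Hist3h2a the interaction was -0.35 ± 0.14 (adjusted p = 0.073) and for Hist1h2bc 0.36 ± 0.16 (adjusted p = 0.0879), so their rises were not shown to differ between the genotypes.

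Several members share sequence or exons with another gene. An exon of 24 of the 67 members is overlapped by another annotated gene, mostly H2A genes overlapped by an annotated miRNA on the opposite strand. In 10 members the other gene is not a short structured RNA. Members with no overlapped exon can also share sequence. Of the 50-base stretches of Hist1h2bc, 30.6 percent also lie in other genes, 23.1 percent in Hist1h2bg. For Hist1h4i the shared part was 28.9 percent and for Hist2h3c2 63.5 percent. Every 50-base stretch of the Hist2h2aa2 model also lies in the longer model of Hist2h2aa1, and the split of reads between them changed from library to library: Hist2h2aa1 stood at 1.80, 7.67 and 0 CPM in WT 1M, 0, 7.13 and 6.69 in 5xFAD 1M and at 2.29, 1.03 and 1.54 in WT 6M, 5.11, 11.4 and 0.779 in 5xFAD 6M. Their sum was 14.6 ± 3.74 and 24.1 ± 3.67 CPM in the WT groups and 13.5 ± 1.28 and 18.2 ± 6.99 in 5xFAD. As 1 feature they were not called in any comparison. The difference between ages in WT was 0.72 ± 0.24 (adjusted p = 0.0605) and that between genotypes at 6 months -0.41 ± 0.24 (adjusted p = 0.352). Hist2h2aa1 also shares 529 of its 586 bases with the noncoding gene Gm20634 on the same strand. Gm20632 and Gm20633, on the opposite strand, cover the whole of Hist2h2aa2 and Hist2h2aa1. How reads were divided between these genes was not tested.

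Hist2h3c1, an H3 gene, lies wholly within exons of the noncoding gene Gm20634, and its counts were 3.25, 1.57 and 0.737 CPM in WT 1M, 0, 2.64 and 0 in 5xFAD 1M and 0 in all 6 libraries at 6 months. It passed the count filter only through libraries at 1 month, so the filter favoured a call of lower with age. Its call in 5xFAD rested on library 2 at 1 month, without which the group was at 0 and the fitted change was 0, and was lost without any of the 5xFAD 6M libraries (adjusted p from 0.0944 to 0.105). Its call in WT was lost without any of the 6 libraries other than WT 1M library 3 (adjusted p from 0.0700 to 0.116). Summed with Hist2h3c2 it was not called in any comparison. Gm20634 itself stood at 23.1, 30.7 and 30.4 CPM in WT 1M, 42.1, 33.1 and 45.0 in 5xFAD 1M, and at 86.4, 87.4 and 92.9 in WT 6M, 39.9, 46.6 and 51.9 in 5xFAD 6M. It rose with age in WT by 1.66 ± 0.14, was higher in 5xFAD by 0.51 ± 0.14 at 1 month (adjusted p = 0.0127) and lower at 6 months, with -0.94 ± 0.14 (adjusted p = 0.000212).

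Summed into 1 feature with the 2 Hist2h2aa and 2 Hist2h3c genes and the antisense genes Gm20632 and Gm20633, the chromosome 3 block stood at 52.1 ± 8.52, 65.5 ± 6.91, 126 ± 11.8 and 76.4 ± 3.82 CPM in WT 1M, 5xFAD 1M, WT 6M and 5xFAD 6M. It rose with age in WT (1.28 ± 0.12), its change in 5xFAD was 0.22 ± 0.12 and not called (adjusted p = 0.196), and the interaction was -1.05 ± 0.17 (adjusted p = 7.6e-05). Between the genotypes it was called at 6 months (-0.72 ± 0.12, adjusted p = 0.000732) and not at 1 month (0.33 ± 0.12, adjusted p = 0.0587).

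Hist3h2a shares 708 of its 2146 exonic bases with Trim17, a gene for a ubiquitin ligase of the TRIM family on the same strand. Trim17 stood at 25.1 ± 4.30 and 46.0 ± 5.23 CPM in the WT groups and 32.2 ± 6.46 and 56.2 ± 7.24 in 5xFAD at 1 and 6 months, and was called higher with age in both (0.87 ± 0.16 and 0.81 ± 0.16). The sum of the 2 genes rose by 1.29 ± 0.09 in WT and 1.00 ± 0.09 in 5xFAD. How reads in the shared bases were divided was not tested.

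In all libraries but WT 1M library 3, most of the counts named Hist1h2be did not fall on its coding transcripts. A transcript with no annotated coding sequence, which overlaps Hist1h1e, took 45.6 to 90.7 percent of the gene's CPM in the 12 libraries. The 2 coding transcripts together stood at 2.50 to 2.87 CPM in WT 1M, 1.72 to 4.12 in 5xFAD 1M, 5.87 to 7.97 in WT 6M and 1.57 to 7.60 in 5xFAD 6M. Hist1h1e shares 496 of its 1930 bases with Hist1h2be on the same strand. Summed with the pseudogene Gm11398 into 1 feature, both rose by 1.53 ± 0.26 in WT. The change in 5xFAD was 0.46 ± 0.26 and not called (adjusted p = 0.220). The interaction was -1.07 ± 0.37 (adjusted p = 0.0384). The split of reads between them was not tested. Of 25 member transcripts tested, 2 rose with age in WT, where 0.916 percent of all 45326 transcripts were called (0.552 percent higher and 0.364 percent lower). The same 2 rose in 5xFAD, where 3.12 percent were called (1.16 percent higher and 1.96 percent lower). They were the transcripts of Hist3h2a (1.47 ± 0.10 in WT and 1.05 ± 0.09 in 5xFAD) and Hist1h2bc (0.58 ± 0.11 and 0.87 ± 0.11). In WT the call of the Hist1h2bc transcript had an adjusted p of 0.0413. edgeR called 0 member transcripts between the genotypes at 1 month, 0 at 6 months and 0 in the interaction, where 2.52, 0.488 and 6.05 percent of all transcripts were called. By direction these shares were 1.6 percent higher and 0.922 percent lower at 1 month, 0.165 and 0.322 percent at 6 months and 2.08 and 3.97 percent in the interaction; 4, 2 and 3 member transcripts had an unadjusted p below 0.05.

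**Figure D5:**
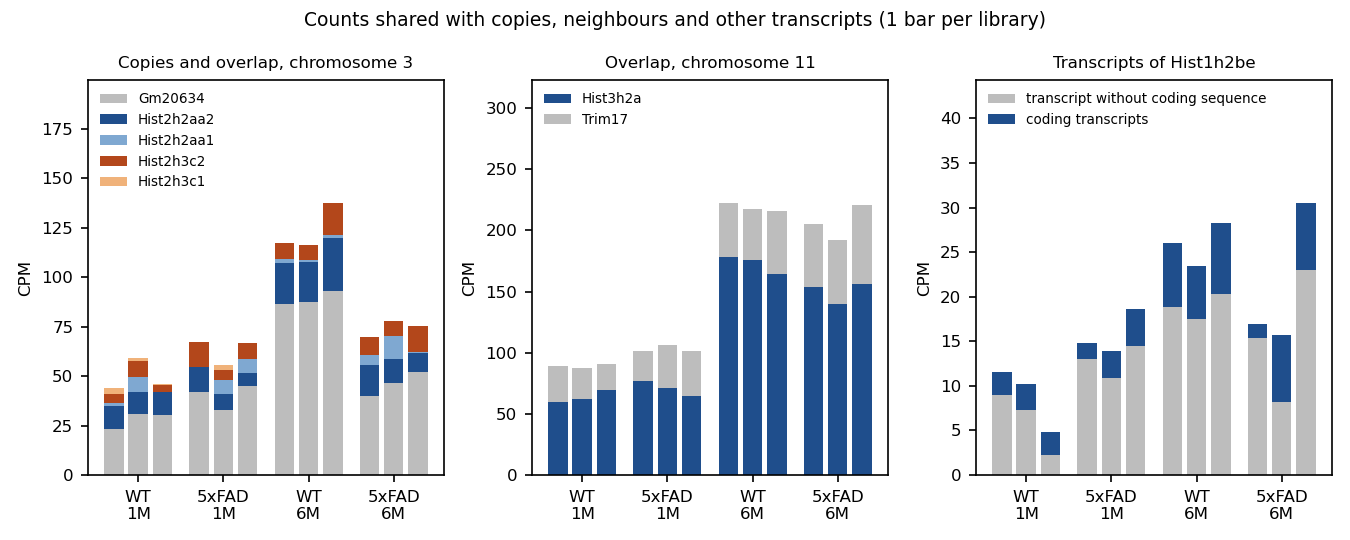
Stacked CPM (vertical, from 0) per library (1 bar each) in the 4 groups: the near-identical or overlapping genes on chromosome 3 (left), Hist3h2a and Trim17 (middle) and the transcripts of Hist1h2be (right). The grey Gm20634 segment is largest in WT 6M (86.4 to 92.9 CPM), the share of Hist2h2aa1 varies within groups, and grey makes up 45.6 to 90.7 percent of the Hist1h2be bars.

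Genes of the cell cycle were read beside the members because the RNAs of most members are normally made in S phase. Mki67, Top2a, Cdk1, Ccnb1 and Rrm2, markers of dividing cells, were below the count filter, and no library exceeded 0.694 CPM for any of them. Summed over the 22 genes of S phase and division, expression was 204 to 226 CPM in WT 1M, 197 to 211 in 5xFAD 1M, 238 to 263 in WT 6M and 258 to 271 in 5xFAD 6M. Of 17 tested, none was called with age in WT, where 3 had an unadjusted p below 0.05, and 3 rose and 1 fell in 5xFAD: Pcna, the sliding clamp of DNA polymerase, by 0.66 ± 0.12, Ccna2, which encodes cyclin A2, by 0.83 ± 0.16, and Mcm7 by 0.51 ± 0.18, while Mcm4, like Mcm7 a subunit of the replicative helicase, was at -0.63 ± 0.23. At 1 month 1 was higher in 5xFAD (Rrm1), and at 6 months none was called, with 2 at an unadjusted p below 0.05. Beside these counts, 10.8 percent of all tested genes rose and 12.4 percent fell with age in 5xFAD, and 6.01 and 4.49 percent in WT. At 1 month 10.7 percent were higher in 5xFAD and at 6 months 2.48 percent. The part of the cell cycle genes in the histone result was not tested.

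Of 20 tested genes that transcribe, cut, translate or degrade histone mRNA, 1 rose with age in WT, 2 rose and 4 fell in 5xFAD, 3 were higher in 5xFAD 1M and none was called at 6 months, where 2 had an unadjusted p below 0.05. The cap-binding subunit gene Ncbp2 rose with age in both genotypes (0.46 ± 0.11 in WT and 0.50 ± 0.11 in 5xFAD). Ctif, a translation factor that acts with the nuclear cap-binding complex, stood at 68.8, 68.3 and 87.6 CPM in WT 1M, 117, 113 and 132 in 5xFAD 1M, higher by 0.69 ± 0.12, and Lsm11, a subunit of the U7 particle, was higher by 0.54 ± 0.17. Slbp, which encodes the stem-loop binding protein, stood at 22.97 ± 7.62, 21.2 ± 3.17, 20.6 ± 1.97 and 22.2 ± 3.07 CPM in WT 1M, 5xFAD 1M, WT 6M and 5xFAD 6M and was not called in any comparison. Of 12 tested histone chaperone genes, 1 fell with age in WT (Nap1l4), 4 rose in 5xFAD, and 1 was higher and 2 lower in 5xFAD 1M. None was called at 6 months, with 1 at an unadjusted p below 0.05. The shares of all tested genes that rose and fell with age were 6.01 and 4.49 percent in WT and 10.8 and 12.4 percent in 5xFAD. At 1 month 10.7 percent were higher and 8.91 percent lower in 5xFAD.

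Of 5 tested RNAs known to lack a poly(A) tail, none was called in any comparison by edgeR, and at most 2 had an unadjusted p below 0.05. Summed over the whole list, tested or not, these RNAs stood at 189 and 111 CPM in 5xFAD 6M libraries 1 and 2 and at 5.56 to 54.5 in the other 10. Without the 3 libraries rich in ribosomal RNA, Hist3h2a rose by 1.42 in WT and 1.15 in 5xFAD and Hist1h2bc by 0.63 and 0.77. This fit keeps 1 library of 5xFAD 6M, so its 5xFAD values rest on that library at 6 months. The markers of neighbouring tissue and blood, summed over 13 genes, ranged from 206 to 290 CPM in WT 1M, 278 to 314 in 5xFAD 1M, 166 to 214 in WT 6M and 125 to 145 in 5xFAD 6M. Of 12 tested, 2 fell with age in WT, both haemoglobin genes, and 2 rose and 4 fell in 5xFAD. At 1 month Cryaa and Kdr, a receptor of blood vessel cells, were higher in 5xFAD (Kdr by 0.72 ± 0.11), and Rpe65, of the pigment epithelium, and Ttr were lower (-2.74 ± 0.46 and -2.29 ± 0.40); at 6 months Kdr was lower (-0.62 ± 0.11). Among all tested genes, 4.49 percent fell with age in WT, and 10.8 percent rose and 12.4 percent fell in 5xFAD. Between the genotypes 10.7 percent were higher and 8.91 percent lower in 5xFAD at 1 month, and 3.89 percent lower at 6 months. The part of these markers in the results for the members was not tested.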

How the data were processed

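Poly(A)-selected RNA of 12 mouse retina libraries was sequenced; per the submitters' processing notes, the tools named include RSEM 1.3.3, STAR 2.7.1a and Trim Galore 0.6.6, and the named build is GRCm38.p6. The deposited values are expected counts, the authors' estimated read numbers per gene and per transcript, which divide reads between overlapping or identical genes. The annotation release behind them is not given in the sources used here; 55227 of 55487 gene IDs matched GENCODE M21. Expected counts were rounded and tested with edgeR 4.0.16 (quasi-likelihood, TMM scaling, filterByExpr, all 12 libraries in 1 fit, limma 3.58.1) in R 4.3.3, with Benjamini-Hochberg adjustment over all 16233 genes or 45326 transcripts and a threshold of 0.05. CPM divide the unrounded expected counts by the TMM-scaled library size; 1 count was worth 0.0509 to 0.0920 CPM. Adjusted p-values in the text are from this fit unless another is named. Figures were drawn with matplotlib 3.10.9 from tables made in Python 3.11.15 with pandas 2.3.3.

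The scripts were tested on simulated data. Members and lists were chosen with earlier results of these data known. Named were the members called in any comparison, the 6 of highest mean CPM and, where fewer than 3 were called, those of smallest p; of other lists, at most 4 genes of smallest p. Alternatives were DESeq2 1.42.0 and its size factors, library size alone, other filters, a replicate block, a fit of 6 libraries, removal of the length and GC trend, and leaving out libraries. Sums over copies and overlapping genes were added after seeing the data. Exact permutation of 3 against 3 libraries cannot give a two-sided p below 0.1.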

Additional observations from a re-analysis of the deposited data

Results flagged for a closer look

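The change from 1 to 6 months differed between the genotypes for 3 histone genes, by the interaction term of edgeR's fit over all genes; these are 12.5 percent of the 24 tested members, where 25 percent of all tested genes were called. For Hist2h4 the change in 5xFAD minus that in WT was -3.50 on the log2 scale (adjusted p = 0.0013). For Hist3h2ba it was 0.99 (adjusted p = 0.0099), and for Hist1h2be -1.07 (adjusted p = 0.0343). Hist1h2be lost its call without any of 7 of the 12 libraries, and Hist3h2ba stood at 0.15 (adjusted p = 0.748) after removal of the length and GC trend. Without the 3 libraries richest in ribosomal RNA neither was called (-0.69, adjusted p = 0.272, for Hist1h2be and 0.82, adjusted p = 0.126, for Hist3h2ba). Groups of 3 libraries were not searched for outlying samples.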

How the results depend on the processing

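The number of members called, leaving out each library, was 0 to 4 between the genotypes at 1 month, 0 to 1 at 6 months, 8 to 10 for age in WT, 5 to 7 for age in 5xFAD and 2 to 7 for the interaction; for transcripts in WT it was 1. The 0 at 1 month came without 5xFAD 1M library 3, and the interaction count was 7 without 5xFAD 6M library 3 and 6 without WT 1M library 1. At 6 months it was 2 with a filter of 1 count in all, 2 with the replicate block, and 0 with a fit of the 6 libraries, with members without an overlapped exon alone or with copies summed. Members without an overlapped exon gave 5 for age in WT and 4 in 5xFAD. The interaction had 5 members with DESeq2's Wald test, 5 with the filter of 1 count and 1 without the 3 libraries rich in ribosomal RNA, a fit in which 5xFAD 6M keeps 1 library assumed to vary like the others. Transcripts called in WT were 1 with DESeq2 size factors and 1 with the replicate block. Fewer genes or libraries entered some of these fits; otherwise the cause was not tested. Hist2h3c1 in 5xFAD had a change of 0 without 5xFAD 1M library 2 (range -7.16 to 0). Same-numbered libraries did not deviate together (correlations -0.0852 to 0.0623). With 3 libraries a group such correlations cannot exclude that the numbers pair libraries. With the replicate block 3 and 2 members were called between the genotypes at 1 and 6 months. For age in WT, age in 5xFAD and the interaction it called 11, 6 and 2. Of 408 alternative values for single genes, 348 kept direction and call, 59 lost the call and 1 lost its direction. Most members have too few counts to be tested at this depth.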

Other observations

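Histone variants made outside S phase were read as a list beside the replication-dependent genes. H3f3a stood at 480 ± 44.3 and 373 ± 27.6 CPM in WT at 1 and 6 months and at 397 ± 12.3 and 521 ± 10.0 in 5xFAD (SD, n = 3). By edgeR it fell with age in WT by 0.36 on the log2 scale (adjusted p = 0.0076) and rose in 5xFAD by 0.39 (adjusted p = 0.0019), with an interaction of 0.75 ± 0.12 (adjusted p = 7.1e-05). H3f3b had an interaction of 0.59 ± 0.13 and H2afz, at 114 ± 15.2 and 96.7 ± 16.6 CPM in the WT groups and 77.0 ± 7.82 and 129 ± 2.59 in 5xFAD, one of 0.98 ± 0.17. Of 11 variant genes, 5 were lower in 5xFAD at 1 month, where 8.91 percent of all tested genes were lower, and 3 were higher at 6 months, where 2.48 percent were. With age 2 fell in WT, where 4.49 percent of all tested genes fell, and 5 rose and 1 fell in 5xFAD, where 10.8 percent rose and 12.4 percent fell. The genotype and age comparisons share libraries.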
